A study of Oryza sativa with 8 samples.

Results

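Leaves of rice plants that overexpress OsGRAS23 (OE) were compared with leaves of wild-type plants (WT) across normal and drought conditions, to find the expression differences between the lines that both conditions shared. The comparison used all 8 Affymetrix rice arrays of the series, 4 OE and 4 WT, and condition entered the model as a covariate. Each line had 2 arrays of normal leaves and 2 of drought leaves, and every plant was 21-day-old japonica Zhonghua11, whose leaves were sampled as pools of 20 seedlings. Normal leaves were taken before treatment. Drought leaves of both lines were taken when WT leaves began to roll after seedlings had been laid on filter paper, so the drought samples were timed by WT. The promoter of the transgene and the number of independent transformants behind the OE plants are not given in the sources used here.

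GRAS proteins are plant-specific transcription regulators named after the founding members GAI, RGA and SCARECROW. The family includes the DELLA proteins, which restrain gibberellin responses and are degraded when the hormone is perceived, and the SCARECROW and SHORT-ROOT proteins, which pattern the root. Other members, such as the chitin-inducible CIGR1 and CIGR2 of rice, respond to elicitors or stress. OsGRAS23 itself could not be checked in these arrays, because no probe set was assigned to it by the annotation tables used here.

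Values were log2 expression levels per probe set, made with the robust multi-array average (RMA), and a difference of 1 is 2-fold. Over the 57194 probe sets tested, array medians lay between 4.8 and 4.9. Replicate arrays of one group correlated at 0.987 to 0.991 across probe sets, OE and WT arrays of the same condition at 0.983 to 0.991, and normal and drought arrays at 0.947 to 0.979. Probe sets are not independent replicates. Of the marker lists, that of leaf was the brightest. The mean of its 5 genes was 9.23 to 9.97 on the OE arrays and 9.31 to 9.89 on the WT arrays. For the 6 root markers it was 6.65 to 7.88 on the OE arrays and 6.18 to 8.06 on the WT arrays. The small Rubisco subunit rbcS, a leaf marker, averaged 13.93 ± 0.20 in OE and 14.05 ± 0.03 in WT (SD, n = 4 each). The panicle and meristem markers MADS1, MADS6, MADS15 and FZP averaged between 3.17 and 4.13 in OE and between 3.20 and 4.24 in WT. The root-associated silicon transporter Lsi1 was also bright, at 10.13 ± 1.21 in OE and 10.26 ± 1.25 in WT. None of the 15 markers in the leaf, root and panicle lists was called by line. OSH1, a shoot meristem gene, was planned as a marker with the panicle genes but is absent from the list as computed. It averaged 5.1 ± 1.61 in OE and 3.14 ± 0.45 in WT with Os.151.2.S1_at. It was not called either, and is described further below.

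The difference between the lines was narrow. With limma on all 8 arrays and Benjamini-Hochberg adjustment, 16 probe sets were at least 2-fold higher in OE than in WT at an adjusted p under 0.05, which is 0.028% of those tested, and 2 were lower, which is 0.0035%. Calls of this kind (adjusted p under 0.05 and at least 2-fold) are the ones meant below. Without adjustment, 1220 probe sets were higher and 1051 lower at p under 0.05, which for both directions is 3.97% of the probe sets. By the same rule, drought against normal with line as covariate gave 2807 calls, or 4.91%. In all 18 called probe sets the 4 OE arrays lay entirely on one side of the 4 WT arrays. Among all probe sets, 0.654% had every OE array above every WT array and 0.726% had every OE array below. The smallest two-sided p that an exact permutation of the line labels within condition allows here is 0.0556, and all 18 reached it. The calls therefore rest on the model of limma. It joins the spread of each probe set (5 residual degrees of freedom) with that shared across probe sets (4.7 prior degrees of freedom). Leaving out an array moved the total of 18 (0.0315%): it became 11 without replicate 1 of the WT normal group, 9 without replicate 2 of the OE normal group, and 8 or 10 when the first or the second array of WT drought leaves was dropped.

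**Figure D1:**
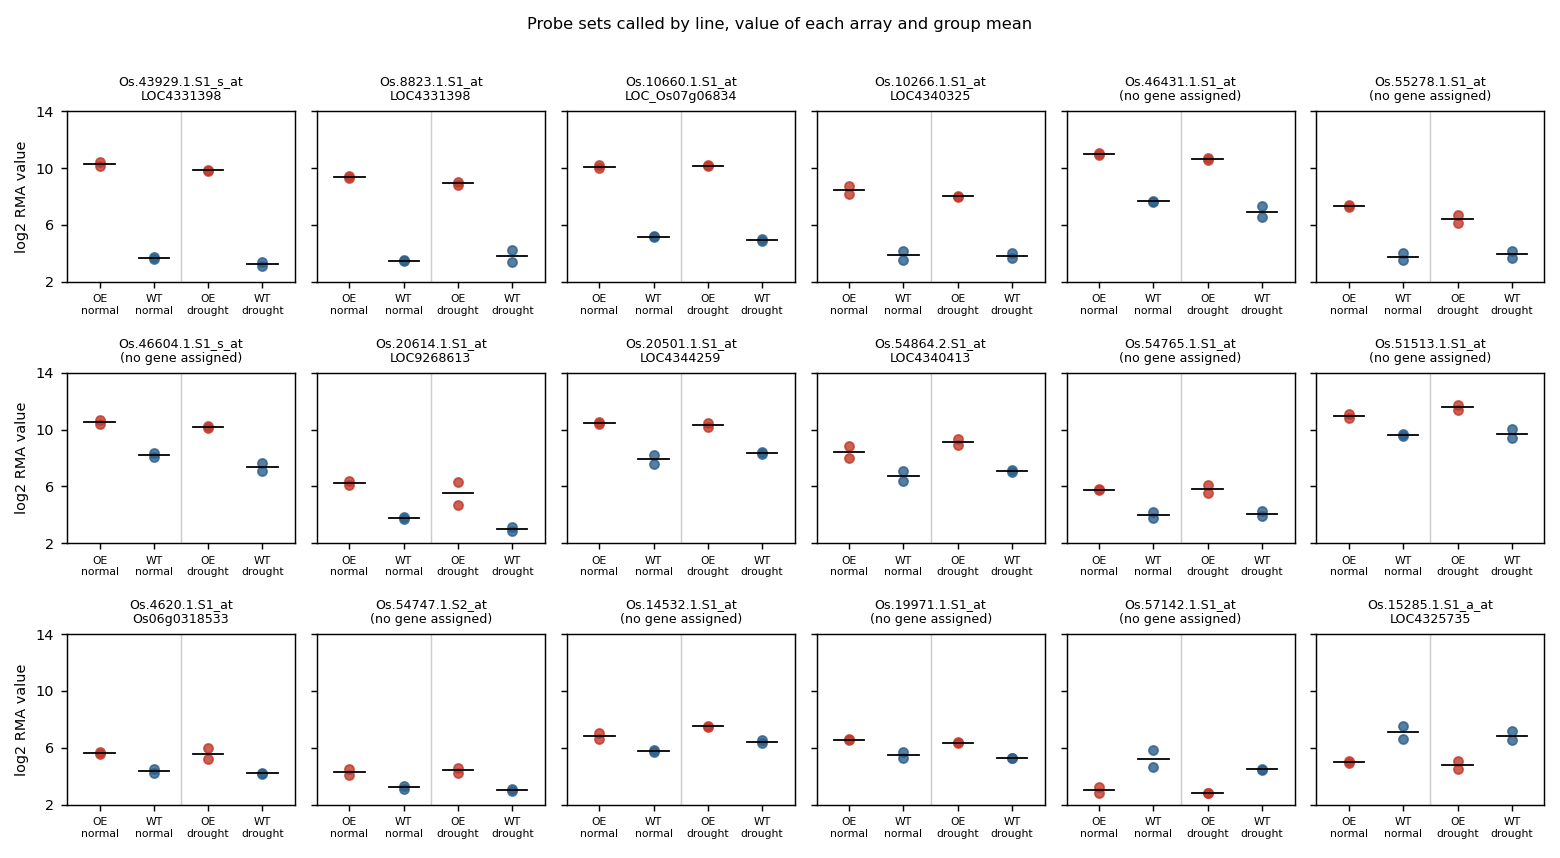
Each panel plots 1 of the 18 called probe sets, with log2 RMA values on the vertical axis, the 2 arrays of each group as points and their mean as a bar. Red OE points and blue WT points do not overlap in any panel, and the panels run from the largest rise, 6.59, to the largest fall, -2.07.

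The 18 probe sets are thinly annotated. The platform table gave 7 of them a gene, 6 genes in all, and the supplementary tables of the study name a locus for 7 (38.9%). Those tables list genes reported as differing more than 2-fold between OsHMGB707 overexpression or RNAi plants and wild type of the same cultivar. They hold 309 of the tested probe sets (0.54%). These 7 were thus also reported as differing in other transgenic plants, so their difference cannot be taken as particular to the OsGRAS23 line. Why they are listed in both was not tested. No value or direction was taken from those tables. The other 9 have neither, and are given by probe set identifier. None of the 18 is of the OsAffx series of predicted transcripts, which makes up 44.6% of the tested probe sets. Of the 16 that were higher, 8 had a WT mean under 5, as had 52% of all probe sets. In bulk leaf RNA, more RNA per cell and more cells of a type cannot be told apart.

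The highest rise was in LOC4331398 on chromosome 3, named LOC_Os03g02470 and described as an expressed protein in the study's tables. Its probe set Os.43929.1.S1_s_at read 10.15 and 10.41 in OE normal leaves and 9.81 and 9.89 in OE drought leaves, against 3.63 and 3.74 in WT normal leaves and 3.12 and 3.40 in WT drought leaves. The lowest OE array was 6.07 above the highest WT array, close to the bottom of the scale in WT and in the upper range in OE. The line difference was 6.59 ± 0.11 on the log2 scale (SE), or 96.3-fold (limma adjusted p = 6.46e-09), with 6.59 in normal leaves and 6.58 in drought leaves. The other probe set of this gene, Os.8823.1.S1_at, gave 9.31, 9.47, 8.83 and 9.03 in OE and 3.51, 3.48, 3.37 and 4.21 in WT (normal, normal, drought, drought). That is a difference of 5.52 ± 0.21, or 45.7-fold (limma adjusted p = 4.37e-06). Both probe sets of the gene thus separated the lines in the same direction. The id of the first ends in _s_at, which marks a probe set that can match several transcripts.

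Os.10660.1.S1_at, which the study's tables name LOC_Os07g06834, an expressed protein, was the tightest of the high risers. It read 10.0, 10.22, 10.13 and 10.23 in OE and 5.23, 5.13, 5.01 and 4.85 in WT, in the order normal, normal, drought, drought. The levels within each line spanned less than 0.5 while the lines stood 5.09 ± 0.12 apart, or 34.1-fold (limma adjusted p = 5.34e-08). Os.10266.1.S1_at followed with 8.71, 8.21, 8.06 and 7.97 in OE, against 3.55, 4.18, 3.66 and 4.01 in WT, a difference of 4.39 ± 0.18 (limma adjusted p = 7.7e-06). Its identity is open, since the platform table assigns it to LOC4340325 on chromosome 6 and the study's tables to LOC_Os03g43100. A second probe set of LOC4340325, Os.37590.1.S1_at, was not higher in OE, with means of 5.13 ± 0.31 in OE and 5.61 ± 0.59 in WT.

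A pair of probe sets with no assigned gene had much alike profiles over the arrays. Os.46431.1.S1_at read 11.05, 10.95, 10.70 and 10.56 in OE, against 7.64, 7.70, 6.55 and 7.34 in WT (normal, normal, drought, drought). Os.46604.1.S1_s_at read 10.65, 10.38, 10.24 and 10.10 in OE, against 8.05, 8.32, 7.10 and 7.66 in WT. In both, every WT value was above the array medians, WT drought replicate 1 was the lowest array, and no WT array came within 1.77 of an OE array. The line differences were 3.51 ± 0.17 and 2.56 ± 0.16 (limma adjusted p = 2.82e-05 and 0.000315). Whether they measure one transcript was not tested. Os.55278.1.S1_at, also without a gene, read 7.23 and 7.41 in OE normal leaves and 6.71 and 6.14 in OE drought leaves, against 3.55 and 4.0 in WT normal leaves and 3.68 and 4.19 in WT drought leaves. Its rise of 3.01 ± 0.24 was 3.54 in normal leaves and 2.49 in drought leaves, and this difference between conditions did not pass the test (interaction -1.05, limma adjusted p = 0.729).

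LOC4344259 on chromosome 7 was expressed in both lines and higher in OE. Os.20501.1.S1_at read 10.55 and 10.40 in OE normal leaves and 10.15 and 10.44 in OE drought leaves, against 8.18 and 7.60 in WT normal leaves and 8.26 and 8.39 in WT drought leaves. The rise was 2.28 ± 0.17, or 4.85-fold (limma adjusted p = 0.00135). LOC9268613 on chromosome 10, which the study's tables name LOC_Os10g41838 and describe as carrying an F-box protein interaction domain, was low in WT and rose in OE. F-box proteins are the substrate-binding subunits of SCF ubiquitin ligases, which mark proteins for breakdown. Os.20614.1.S1_at read 6.40, 6.07, 6.32 and 4.69 in OE and 3.73, 3.87, 2.85 and 3.15 in WT (normal, normal, drought, drought). OE drought replicate 2 lay far below the other OE arrays and still above every WT array. The rise was 2.47 ± 0.29, or 5.55-fold (limma adjusted p = 0.0321). The call was lost when any normal array or either WT drought array was left out (adjusted p up to 0.221), while the difference stayed between 2.40 and 2.54. A further probe set assigned to the gene, Os.20614.3.S1_x_at, averaged 4.56 ± 0.86 in OE and 3.04 ± 0.07 in WT, did not pass the test (adjusted p = 0.4), and carries another locus name, LOC_Os01g36064, in the study's tables, so signals of related F-box genes cannot be told apart here.

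LOC4340413 on chromosome 6, named LOC_Os06g09980 and described as an expressed protein, was 3.64-fold higher in OE. Os.54864.2.S1_at read 8.02 and 8.81 in OE normal leaves and 8.88 and 9.34 in OE drought leaves, against 6.39 and 7.07 in WT normal leaves and 6.99 and 7.15 in WT drought leaves (difference 1.86 ± 0.22, limma adjusted p = 0.0312). The lines were 0.87 apart at their nearest arrays. The call was kept without WT normal replicate 2 or OE normal replicate 1 and lost without any of the other 6 arrays (adjusted p up to 0.218), with differences between 1.74 and 2.06 over the 8 fits. The dimmer probe set Os.54864.1.S1_at of this gene averaged 5.06 ± 1.23 in OE and 4.57 ± 1.06 in WT, a difference of 0.49 that did not pass the test after adjustment. Os.4620.1.S1_at, listed as the hypothetical protein Os06g0318533, averaged 5.61 ± 0.31 in OE and 4.28 ± 0.16 in WT and was 2.52-fold higher (limma adjusted p = 0.0363), a call kept only when an OE drought array was the one left out.

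The remaining rises were in probe sets with no gene assigned, named here after their values were seen. Os.51513.1.S1_at was the brightest, at 11.25 ± 0.42 in OE and 9.66 ± 0.29 in WT (difference 1.59, limma adjusted p = 0.0312), and its call was kept in 2 of the 8 fits with 1 array left out, those without OE normal replicate 1 or WT drought replicate 2. Os.54765.1.S1_at averaged 5.77 ± 0.22 in OE and 4.01 ± 0.24 in WT, and Os.54747.1.S2_at 4.35 ± 0.25 in OE and 3.12 ± 0.15 in WT. The first kept its call in all such fits but that without WT drought replicate 1 (limma adjusted p = 0.0507), the second only in that without OE normal replicate 1. The smallest called rises were those of Os.14532.1.S1_at and Os.19971.1.S1_at, both 2.07-fold, and each was called in 1 of the 8 fits, that without OE normal replicate 1 for Os.14532.1.S1_at and that without WT normal replicate 2 for Os.19971.1.S1_at. In Os.14532.1.S1_at the lines nearly met: the lowest OE array, at 6.59, and the highest WT array, at 6.56, were 0.03 apart, and drought leaves of both lines were higher than normal leaves by 0.68 (limma adjusted p = 0.00538).

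Of the 2 probe sets that were lower in OE, 1 belongs to a named locus. Os.15285.1.S1_a_at, assigned to LOC4325735 on chromosome 1 and described in the study's tables as a putative cullin, LOC_Os01g27150, read 5.09 and 4.94 in OE normal leaves and 4.51 and 5.07 in OE drought leaves, against 6.61 and 7.56 in WT normal leaves and 7.18 and 6.54 in WT drought leaves. Cullins are the scaffolds of cullin-RING ubiquitin ligases, and CUL1-type cullins hold the F-box subunit through an adaptor. The probe set was 4.2-fold lower in OE (difference -2.07 ± 0.23, limma adjusted p = 0.0243), by -2.07 in normal and -2.07 in drought leaves. The other probe set of the gene, Os.15285.2.S1_at, was near the bottom of the scale in both lines, at 3.58 ± 0.25 in OE and 3.74 ± 0.34 in WT. Os.57142.1.S1_at, without a gene, read 2.82, 3.22, 2.79 and 2.81 in OE and 5.83, 4.61, 4.52 and 4.45 in WT (normal, normal, drought, drought), 3.85-fold lower in OE (limma adjusted p = 0.0418). In OE the first averaged 4.9, at the level of the array medians, and the second 2.91, near the bottom of the scale. Neither call was kept when any OE array or either WT drought array was left out, which gave 0 lower calls in each of those fits.

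Set by condition, the calls overlapped. Tested within the fit of 4 groups, OE normal leaves had 9 probe sets higher than WT normal leaves (0.0157%) and 2 lower (0.0035%), and OE drought leaves had 9 higher than WT drought leaves (0.0157%) and 0 lower (0.0%; 4037 probe sets had an unadjusted p under 0.05 in either direction). The number called higher in normal leaves was 20 without OE normal replicate 2. The number lower there was 0 without replicate 1 of OE normal or with either array of WT drought dropped, and 1 without replicate 1 of WT normal. In drought leaves 1 probe set was called lower without WT drought replicate 1. The same 8 probe sets were called in both conditions, 72.7% of the 11 called in normal and 88.9% of the 9 called in drought leaves. These were both probe sets of LOC4331398, Os.10660.1.S1_at, Os.10266.1.S1_at, Os.46431.1.S1_at, Os.55278.1.S1_at, Os.46604.1.S1_s_at and Os.20501.1.S1_at. The other 10 of the 18 were called in neither condition alone, where each line has 2 arrays, and all 18 differed at least 2-fold in the same direction in both conditions. The line test fits a single difference for both conditions, so it favours such agreement. A test of the difference between the line effects in drought and in normal leaves gave 0 calls over all probe sets (limma, 0.0%; 3839 at an unadjusted p under 0.05). By stress with line as covariate, none of the 18 was called. At any fold, 4 of the 18 had a stress adjusted p under 0.05, as had 21.4% of all probe sets, with drought against normal differences between -0.58 and 0.68: Os.43929.1.S1_s_at, Os.46431.1.S1_at, Os.46604.1.S1_s_at and Os.14532.1.S1_at.

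**Figure D2:**
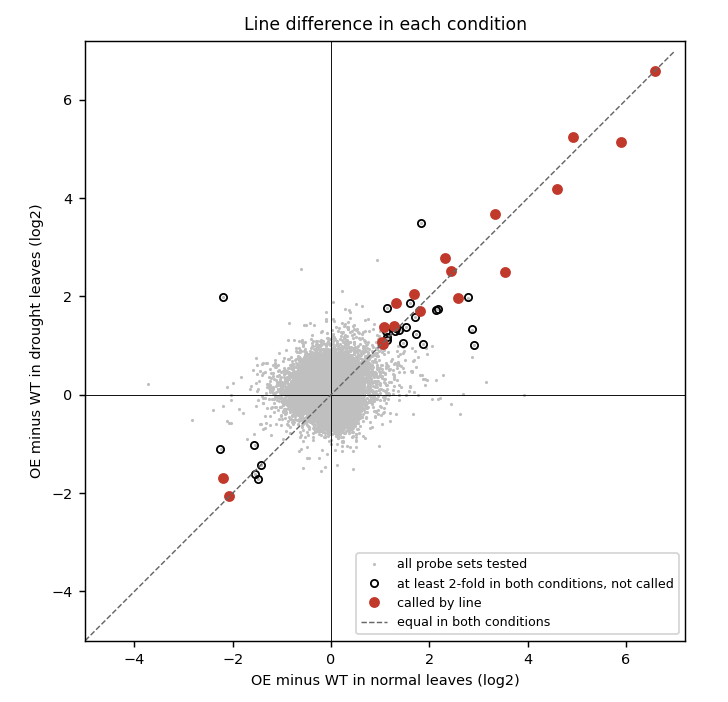
The OE minus WT difference in normal leaves (horizontal, log2) is plotted against that in drought leaves (vertical, log2) for every probe set tested (grey), the 18 called by line (red) and the 27 others at least 2-fold in both conditions (open circles). The called probe sets lie along the dashed line of equal differences, up to 6.59 and 6.58. They were picked by a fit of a single difference for both conditions, which favours such a position. Over all probe sets the differences correlate at -0.017.

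Across all probe sets the difference in normal leaves and that in drought leaves correlated at -0.017, and at 0.141 over the 13485 with a mean above 7. The 2 contrasts share no array, and probe sets of one array are not independent. A difference of at least 2-fold was seen for 333 probe sets in normal leaves and 219 in drought leaves, and for 45 in both, 13.5% of the first and 20.5% of the second. Of the 45, 44 agreed in direction (0.0769% of all tested). In 37 OE was higher in both conditions (0.0647% of all tested), in 7 lower in both (0.0122%), and in 1, Os.12430.1.S1_at, the directions were opposite. The calls take in 16 of the 37 and 2 of the 7.

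The 26 that differed at least 2-fold in the same direction in both conditions without being called include several named genes, described here after their values were seen. LOC4344046 on chromosome 7 was the largest of them. Os.11218.1.S1_at read 7.41 and 9.64 in OE normal leaves and 10.54 and 10.98 in OE drought leaves, against 6.38 and 7.0 in WT normal leaves and 7.45 and 7.08 in WT drought leaves (difference 2.66 ± 0.48, limma adjusted p = 0.33). OE normal replicate 1 stood 0.04 below the highest WT array, and the OE replicates in normal leaves were over 2 log2 units apart. The probe set was called when OE normal replicate 1 was left out. The protein kinase LOC4350063 (LOC_Os11g10710, Os.12639.1.A1_at) read 7.19, 7.04, 6.34 and 7.77 in OE and 4.98, 4.97, 5.14 and 5.50 in WT (normal, normal, drought, drought), with no overlap, and missed the threshold (1.94 ± 0.26, limma adjusted p = 0.0674). It was called with a trended and robust spread, with the replicate block within condition, and without OE drought replicate 1. LOC4342716 (LOC_Os07g11150, Os.44418.1.S1_at) averaged 5.53 ± 0.84 in OE and 3.15 ± 0.19 in WT and also missed it (adjusted p = 0.0582). It was called with the interaction fitted, after quantile normalization, and without replicate 1 of OE normal or of OE drought leaves.

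Among the rest, LOC_Os03g19600, described as an unclassified retrotransposon protein, had 2 probe sets with a difference near 2 on the log2 scale. Os.11065.1.A1_at averaged 7.04 ± 0.54 in OE and 4.95 ± 0.87 in WT, and Os.8570.3.S1_s_at averaged 6.5 ± 0.50 in OE and 4.54 ± 1.14 in WT. Their WT levels were lower in normal leaves than in drought leaves, and neither passed the test (limma adjusted p = 0.229 and 0.806). Os.11065.1.A1_at was called with the interaction fitted. BGLU30, a family member of the beta-glucosidases that release aglycones from glucosides (Os.11510.1.S1_at), averaged 8.70 ± 0.37 in OE and 7.57 ± 0.20 in WT (adjusted p = 0.278). The probe set Os.11510.1.S1_s_at, whose id differs only in its ending, was called with the interaction fitted and with a trended and robust spread. On the lower side, LOC4331468 (Os.6976.1.S1_s_at) averaged 7.29 ± 0.64 in OE and 8.87 ± 0.57 in WT, and LOC4341806 (Os.55740.1.S1_at) 2.96 ± 0.19 in OE and 4.26 ± 0.64 in WT, with adjusted p values of 0.772 and 0.391.

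Of the 47 homeobox genes of the gene lists, 33 were higher and 14 lower in OE, and none was called. The 3 described here were picked after their values were seen. The list of 4 panicle and meristem markers had 1 higher and 3 lower genes, with a median difference of -0.06. That list lacks OSH1, which was planned as a marker and had a higher mean in OE. OSH1, the rice KNOX gene expressed in indeterminate cells of the shoot meristem, read 6.88, 3.07, 4.73 and 5.73 in OE and 2.74, 2.86, 3.25 and 3.73 in WT with Os.151.2.S1_at (normal, normal, drought, drought). A single OE array, normal replicate 2, was at the WT level, and the difference of 1.96 ± 0.65 did not pass the test (limma adjusted p = 0.998). The homeobox list did not read OSH1 by this probe set, since the highest difference in the list was 1.44. In that list 2 genes were at least 2-fold apart. OSH1 is described here from Os.151.2.S1_at alone. The related KNOX gene OSH71, also known as Oskn2 (Os.4162.1.S1_at), read 7.68, 6.70, 6.99 and 7.60 in OE and 4.61, 5.87, 6.06 and 6.88 in WT. OE lay above WT within each condition but overlapped WT across conditions (1.39 ± 0.37, limma adjusted p = 0.998). WOX11, which promotes crown root formation in rice (Os.51714.1.S1_at), read 4.31, 4.43, 7.52 and 7.50 in OE and 3.66, 4.02, 6.59 and 6.49 in WT. Its difference was 0.75 ± 0.13, with 0.53 in normal and 0.97 in drought leaves, and had the lowest adjusted p of the listed genes, 0.33.

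**Figure D3:**
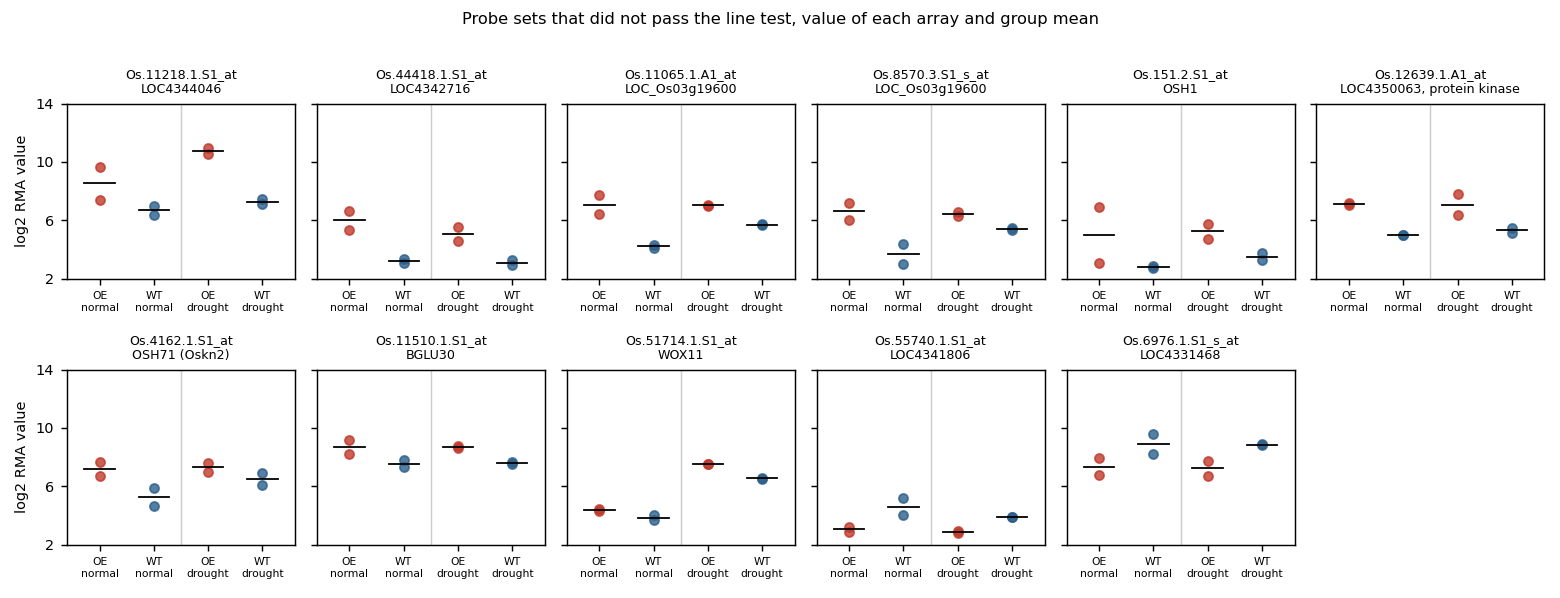
Each panel plots 1 of 11 probe sets that did not pass the line test, with log2 RMA values on the vertical axis, the 2 arrays of each group as points and their mean as a bar. Replicates of one group are often over 1 log2 unit apart, as in OE normal leaves for Os.151.2.S1_at at 6.88 and 3.07.

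Taken by gene lists, no list held a called gene, and calls were rare over all genes too. The 28 lists covered 766 genes, each read by its brightest probe set, and 0 were called by line (limma; 42 were higher and 18 lower at an unadjusted p under 0.05). Over all 17905 genes with a probe set of their own, 5 were called higher and 1 lower, the median difference was 0.02, and 6.26% had an unadjusted p under 0.05, 737 higher and 384 lower. In all, 9944 of them were higher in OE and 7961 lower. List medians ran from -0.13 for heat stress factors and heat shock proteins to 0.19 for histones and cell division genes. In the first of these, 39 of 52 genes were lower in OE, 6 of them at an unadjusted p under 0.05, and in the second 44 of 55 were higher, 6 of them at an unadjusted p under 0.05. Among single members, the small heat shock protein HSP17.4 averaged 9.39 ± 3.22 in OE and 10.19 ± 3.15 in WT, and the replication licensing gene MCM2 averaged 7.26 in OE and 6.75 in WT. The homeobox list had 6 of 47 genes higher at an unadjusted p under 0.05 and none lower.

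The GRAS, gibberellin, ABA and LEA lists lay near the median of all genes. The 7 GRAS genes with a recognised name had a median difference of 0.03, between -0.16 and 0.35, and none was called. CIGR1 averaged 11.98 ± 0.21 in OE and 11.92 ± 0.45 in WT, CIGR2 10.72 ± 0.32 in OE and 10.83 ± 0.25 in WT, and SLR1, the DELLA protein of rice (listed as GAI), 8.0 ± 0.10 in OE and 7.97 ± 0.11 in WT. The 15 gibberellin genes had a median of 0.00. Among them the receptor gene GID1 averaged 9.96 in OE and 9.81 in WT, and the F-box gene GID2 averaged 11.34 in OE and 11.36 in WT. The 25 ABA genes, mostly SAPK kinases and PP2C phosphatases of the ABA signalling core, had a median of 0.02 and none at an unadjusted p under 0.05. The 9 LEA and dehydrin genes, whose products protect cells during water loss, had a median of 0.09, -0.03 in normal leaves and 0.26 in drought leaves. The medians of all genes were -0.06 in normal and 0.12 in drought leaves, and none of the 9 had an unadjusted p under 0.05.

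Of the remaining stress genes, DREB1E averaged 6.97 ± 0.44 in OE and 7.40 ± 0.50 in WT, and AOS2, an allene oxide synthase of jasmonate synthesis, 6.68 ± 0.31 in OE and 7.30 ± 0.52 in WT. P5CS2, a proline synthesis gene, averaged 7.91 ± 0.54 in OE and 7.15 ± 0.49 in WT. In these 3 genes OE and WT did not overlap within either condition. The same held for 2.38% of all probe sets in the higher direction and for 2.39% in the lower, and each had an adjusted p of 0.998 (limma). AOS2 differed in sign from most of its list: 29 of the 40 jasmonate and TIFY genes were higher in OE and 11 lower. Their median difference was 0.15, with 3 higher and 1 lower at an unadjusted p under 0.05 (limma). Over all 17905 genes, 9944 were higher. ADC2, an arginine decarboxylase gene of polyamine synthesis, averaged 8.17 ± 0.74 in OE and 7.07 ± 1.62 in WT, with a difference of 1.81 in normal leaves and 0.39 in drought leaves.

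**Figure D4:**
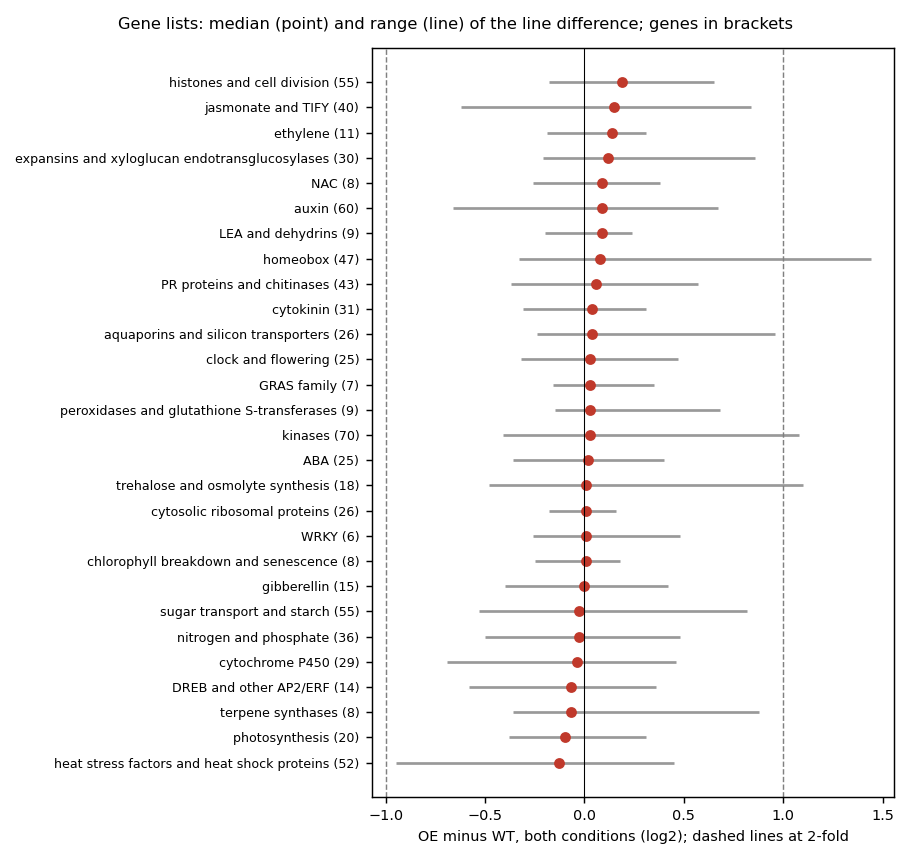
Points give the median and lines the lowest to highest OE minus WT difference (log2, both conditions together) of the genes in each of the 28 lists, with the number of genes in brackets and dashed lines at 2-fold. Medians lie between -0.13 and 0.19, and members past the 2-fold line occur in the homeobox, kinase and osmolyte lists.

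The genes next to the called ones were also read. In the order of the RefSeq annotation, up to 2 genes on each side of the 6 called genes were read by 18 probe sets of 16 genes, and none was called. Their differences lay between -0.74 and 0.46. The lowest was that of GRXC1, beside the cullin gene LOC4325735. The second gene after LOC4340325, the open assignment of Os.10266.1.S1_at, was LOC4340327, which differed by 0.46. Beside LOC4331398, which differed 96.3-fold, LOC4331397 differed by 0.34. These 3, of the 18 probe sets read, had the same sign as the called gene near them and an unadjusted p under 0.05 (limma adjusted p = 0.998). Over all probe sets, 3.97% had an unadjusted p under 0.05 in either direction. Whether neighbours differ more often than other genes was not tested.

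A few probe sets were called in a single condition and not by line with stress as covariate. Of these, Os.29043.1.S1_at and Os.9273.1.S1_x_at were called by line when the interaction was fitted. Os.29043.1.S1_at (LOC_Os01g49750, an expressed protein) read 5.77 and 5.94 in OE drought leaves, against 3.17 and 3.08 in WT drought leaves, and 3.88 and 3.90 in OE normal leaves, against 2.96 and 2.96 in WT normal leaves. OE was higher in both conditions, by 2.73 in drought (limma adjusted p = 0.000266) and by 0.93 in normal leaves. Os.53763.1.A1_at (LOC4341380, a receptor-like protein kinase) read 3.56 and 4.76 in OE normal leaves, against 8.19 and 7.56 in WT normal leaves, and was near the bottom of the scale in all drought leaves. Os.9273.1.S1_x_at read 9.31 and 9.09 in OE normal leaves, against 6.96 and 6.90 in WT normal leaves, while in drought leaves it read 10.82 and 11.13 in OE and 10.69 and 10.46 in WT. OsAffx.15178.1.S1_s_at read 4.98 and 5.0 in OE normal leaves, against 6.65 and 7.01 in WT normal leaves. None of the 4 passed the test of the difference between conditions (limma adjusted p between 0.394 and 0.444).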

How the data were processed

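Total RNA of rice leaves (6 µg per labelling) was hybridised to 8 Affymetrix arrays. The values deposited by the authors are log2 expression per probe set. The submitters' processing notes name RMA and Partek 6.5. Other settings are not given in the sources used here. No further normalization was applied. Probe sets whose ids start with AFFX or RPTR (187 controls) were left out, and 57194 were tested with limma 3.58.1 in R 4.3.3 (line + stress, all 8 arrays, 5 residual and 4.7 prior degrees of freedom; cell means of the 4 groups for single conditions and the interaction). Probe sets at least 2-fold apart with an adjusted p under 0.05 were called. Python 3.11.15, pandas 2.3.3, scipy 1.17.1 and matplotlib 3.10.9 were used for lists, exact permutations (36 arrangements) and plots. The line test was tried on simulated arrays with 57194 probe sets and independent normal noise. It recovered 48 of 100 simulated differences of 1 log2 unit and 50 of 50 of 2 log2 units. A difference of 1 lies on the fold threshold and the median estimate was 1, so the 48 reflects that threshold and does not measure power. Of 152 calls, 4 were in probe sets without a simulated difference.

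Names and gene order were read from RefSeq (assembly ASM3414082v1), reached through the platform annotation, and 22436 probe sets had 1 gene. The members, gene lists and alternatives were chosen with earlier results of these data known. The rule for named genes took the called probe sets with a gene or description, up to 20 in each direction, and called list members; others are named after their values were seen. Replicates are labelled biological. The number of arrays limits the precision. The alternatives were another model, normalization, filter, variance model or threshold, the replicate number as a block, and each array left out.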

Additional observations from a re-analysis of the deposited data

Results flagged for a closer look

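One signal lay outside the tested probe sets, among the array controls that the comparison left out. The reporter probe set RPTR-Os-K01193-1_at averaged 13.47 ± 0.24 in the 4 OE arrays and 3.75 ± 0.16 in the 4 WT arrays (SD). It read 13.56 and 13.11 in OE normal leaves and 13.59 and 13.62 in OE drought leaves, against 3.74 and 3.53 in WT normal leaves and 3.88 and 3.85 in WT drought leaves, a difference of 9.72 on the log2 scale or 845-fold. The lines were separated on every array. The exact permutation p within condition was 0.0556, the smallest this design can give. Of the 64 reporter probe sets this was the only one with all OE arrays at least 1 log2 unit above all WT arrays. The other 63 had line differences between -0.22 and 0.64, and 0 of the 123 AFFX controls were separated in this way. What the probe set detects is not annotated in the tables used here, so it is given by its identifier and values alone.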

How the results depend on the processing

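The 8 probe sets called in both conditions were called under each of the 16 alternative fits that tested them (8 with 1 array left out), and no line effect of the 18 changed sign. The 16 higher calls became 26 when the average of the conditions was taken with the interaction fitted and 9 at an adjusted p under 0.01, and ran from 8 to 17 with 1 array left out. The 2 lower calls became 1 for a mean log2 value above 5, 1 with probe sets of ids ending in _x_at, _s_at or _a_at left out, and 0 at an adjusted p under 0.01, and ran from 0 to 2 with 1 array left out. With the replicate number as a block they became 13 higher and 1 lower, and with the block set within each condition 13 and 0. Same-numbered arrays showed no strong shared deviation (correlations from -0.166 to 0.1). With 2 arrays per group this cannot exclude that the numbers pair the samples. In normal leaves the 9 higher calls ran from 7 to 20 and the 2 lower calls from 0 to 2 with 1 array left out; the lower ones became 0 with the 4 normal arrays alone and 1 after quantile normalization. In drought leaves the calls ran from 7 to 12 higher and from 0 to 1 lower. The count of called genes in the lists stayed at 0 in each setting run. The cause of these changes was not tested. Dim probe sets near the bottom of the scale limit fold estimates, and 2 arrays per group limit the tests within a condition.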
